A study of Mus musculus with 40 samples.

Results

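The 8 genes described here are Insr, Irs1, Irs2, Igfbp1, Pck1, G6pc, Pdk4 and Ppargc1a, which code for parts of the insulin signal in liver and for its targets in fasting glucose supply. They were listed by name, and all 8 were found among the 11119 genes of the deposited tables. The levels come from RNA sequencing of polyadenylated RNA from 40 mouse liver samples, labelled as liver and hepatocytes. Partial hepatectomy (PH) removes part of the liver, after which hepatocytes of the remnant divide. The groups before PH (0 h) held 7 mice aged 3 months and 8 aged 12 months. Among the 7 are mice labelled Mwt1, Mwt2 and Mwt3, names unlike those of all other mice at 0 and 72 h. The labels do not explain these names, and the 3-month 0 h mean includes these mice. At 48 h after PH there were 3 untreated mice aged 3 months, 3 untreated mice aged 12 months and 3 mice aged 12 months given ATRi. Each age had 4 untreated and 4 ATRi mice at 72 h. ATRi blocks ATR, a kinase of the DNA replication checkpoint, and was given 24 h after PH. The strain, sex, feeding state, unit of the ATRi dose and time of day are not given in the sources used here. The labels place 8 of the 12-month mice and 4 of the 3-month mice at both 0 and 72 h, so comparisons of these times share mice.

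Insulin binds its receptor on hepatocytes, and the receptor phosphorylates the substrates IRS1 and IRS2, which recruit PI3-kinase and activate AKT. AKT keeps the transcription factor FOXO1 out of the nucleus and so lowers transcription of Igfbp1, Pck1, G6pc and Irs2. In fasting, glucagon and glucocorticoids act the other way, through CREB, PGC-1α (the product of Ppargc1a) and FOXO1, and hepatocytes release glucose and spare pyruvate. Liver loss by hepatectomy is itself known to lower blood glucose.

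Values are the authors' levels, the log2 of a quantity named sigma that the sources do not define. For 8 groups only a mean over mice was deposited. For the ATRi mice aged 12 months at 72 h the tables hold the mean and 4 single livers (M545, M546, M547 and M548), which are the only measure of spread, so SD below is over these 4. Steps between neighbouring means are set beside this SD, which is a spread of single livers and wider than the error of a mean. A step within the SD thus does not show that the means are equal. The deposited mean of that group lies above the mean of the 4 livers' log2 levels by 0.088 at the median gene and by 0.115 to 0.493 for the 8 genes, and for 19.2% of all genes it lies outside the range of the 4 livers. Read depth is unknown. Hepatocyte markers were high in each table (summed level 14.99 to 16.18, log2), with 7 of 8 measured. Summed neutrophil markers were at 5.15 to 6.32 in the 12-month means at 0 and 72 h and at 2.48 to 2.93 in the other 6 means, with 5 of 7 measured. Among the 4 livers M546 was highest in these markers (7.40), beside 5.27 to 5.51 in the other 3. Kupffer cell markers ran from 7.68 to 9.65, with the 12-month 72 h means at 9.65 untreated and 9.496 under ATRi. The part of these markers in the differences below was not tested. Fewer cells of a type and less RNA per cell cannot be told apart in whole liver.

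RefSeq promoter windows (GRCm38.p6, 250 bases before to 50 after the start) were matched for 7 of the 8 genes. They were searched on both strands for CAAAACA and CAAAATA, forms of the insulin response sequence that FOXO factors bind, for the forkhead motif GTAAACA and for ACGTCA, the core of the cAMP response element that CREB binds. The stretches before the start are shown for Irs2, Igfbp1 and G6pc, which held CAAAACA, and for Pck1 and Ppargc1a, which held ACGTCA. Irs1, which held CAAAACA, and Pdk4, which held no match, are not shown, so only genes with a match are displayed. Capitals mark the matches, written as they run 5′ to 3′ on the gene's strand, so that TGTTTTG and TATTTTG are the reverse complements of CAAAACA and CAAAATA. Each stretch is cut where the first annotated exon begins, so some end short of the RefSeq start. That of G6pc holds 95 bases, and its TGTTTTG lies at −174 from that start. The stretches are Irs2 at chr8:11008930-11009179 (minus strand), Igfbp1 at chr11:7197537-7197781 (plus), G6pc at chr11:101367466-101367560 (plus), Pck1 at chr2:173152823-173153047 (plus) and Ppargc1a at chr5:51567727-51567975 (minus).
Irs2: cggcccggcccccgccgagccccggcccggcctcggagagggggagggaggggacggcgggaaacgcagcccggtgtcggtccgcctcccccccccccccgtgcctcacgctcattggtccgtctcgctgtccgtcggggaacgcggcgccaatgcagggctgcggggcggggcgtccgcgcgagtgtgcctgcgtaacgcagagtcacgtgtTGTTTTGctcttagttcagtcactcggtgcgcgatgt
Igfbp1: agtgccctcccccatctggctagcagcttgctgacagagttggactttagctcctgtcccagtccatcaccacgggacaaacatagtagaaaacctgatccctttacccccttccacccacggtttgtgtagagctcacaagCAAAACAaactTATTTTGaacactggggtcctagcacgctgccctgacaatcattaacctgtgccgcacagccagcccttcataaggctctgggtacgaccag
G6pc: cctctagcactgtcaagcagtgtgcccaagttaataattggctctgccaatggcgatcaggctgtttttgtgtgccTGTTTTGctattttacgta
Pck1: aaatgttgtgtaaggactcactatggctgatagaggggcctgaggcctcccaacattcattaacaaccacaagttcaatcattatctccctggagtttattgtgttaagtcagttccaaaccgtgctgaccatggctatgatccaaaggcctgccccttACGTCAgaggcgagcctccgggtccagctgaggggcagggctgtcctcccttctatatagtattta
Ppargc1a: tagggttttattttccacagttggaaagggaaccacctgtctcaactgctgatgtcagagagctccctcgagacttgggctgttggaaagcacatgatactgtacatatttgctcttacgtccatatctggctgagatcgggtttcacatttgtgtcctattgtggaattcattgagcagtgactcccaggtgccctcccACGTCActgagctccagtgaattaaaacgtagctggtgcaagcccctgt
CAAAACA was in the windows of 4 of the 7 genes (Irs2, Irs1, Igfbp1 and G6pc) and in 6.28% of 32851 windows of 300 bases. CAAAATA was in the window of Igfbp1, 4 bases from its CAAAACA, and in 4.36% of all windows. ACGTCA was in Pck1 and Ppargc1a and in 7.51% of all windows. GTAAACA was in none of the 7 and in 3.65% of all. A match describes letters and is no evidence of a bound site.

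Insr codes for the insulin receptor (GRCm38 chr8:3122061-3279617, minus strand). Its mean level at 3 months was 3.16 at 0 h, 2.59 at 48 h, 3.30 at 72 h and 3.03 at 72 h under ATRi. At 12 months it was 2.86 at 0 h, 2.61 at 48 h, 2.71 at 48 h under ATRi, 3.45 at 72 h and 4.71 at 72 h under ATRi. The receptor gene was thus lowest at 48 h at both ages. The 4 livers of the last group were at 4.62, 3.54, 4.32 and 5.23 for M545, M546, M547 and M548 (SD 0.70), all above the highest other mean, and M546 by only 0.085. Insr stood 1.25 above the untreated 72 h mean (SE 0.37, adjusted p = 0.072, limma), which missed the threshold of 0.05. It rose by 1.85 against 0 h (adjusted p = 0.005, limma) and by 2.001 against 48 h under ATRi (adjusted p = 0.012, limma). With tables centred within classes of gene span, described below, these were 0.98 (adjusted p = 0.026) and 1.08 (adjusted p = 0.050, no longer passing, limma).

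Irs1 and Irs2 code for the insulin receptor substrates of hepatocytes, and their levels followed different courses. Irs1 (chr1:82233101-82291416, minus strand) stayed between 1.58 and 2.23 in all 9 means. Its 4 livers were at 1.91, 1.55, 2.48 and 2.18 (SD 0.39), so they overlapped the other means. No gap between neighbours in the order of its 9 means exceeded this SD, and in none of 5 tested comparisons did it pass (adjusted p = 0.20 to 0.97, limma).

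Irs2 (chr8:10984681-11008458, minus strand), the substrate gene that fasting induces, varied most of the 8 over the 9 means, with a range of 4.74. At 3 months its mean was 3.75 at 0 h, 2.41 at 48 h, 5.13 at 72 h and 4.17 at 72 h under ATRi. At 12 months it was 3.10 at 0 h, 3.32 at 48 h, 3.11 at 48 h under ATRi, 4.01 at 72 h and 7.15 at 72 h under ATRi. The young livers thus had their lowest mean at 48 h and their highest at 72 h (2.72 between these means, no test), while the older untreated livers differed by 0.91 between 0 and 72 h. The 4 livers of the 12-month ATRi group were at 6.13, 6.04, 7.54 and 8.02 (SD 0.998), and all 4 were above the highest other mean. Irs2 rose by 3.14 against untreated livers of that age and time, 8.83-fold (SE 0.50, adjusted p = 0.043, limma), with all 4 livers higher. The call was lost without M545, M547 or M548 (adjusted p = 0.090, 0.12 and 0.12, limma). In the order of its means only the step from the 3-month 72 h group to this group (2.02) exceeded the SD.

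Igfbp1 (chr11:7197782-7202546, plus strand) codes for a secreted binding protein of insulin-like growth factors that insulin represses and that rises early in regeneration. At 3 months its mean was 8.79 at 0 h, 9.31 at 48 h, 9.91 at 72 h and 9.77 at 72 h under ATRi. At 12 months it was 9.32 at 0 h, 10.24 at 48 h, 9.28 at 48 h under ATRi, 9.41 at 72 h and 10.57 at 72 h under ATRi. The highest untreated mean was thus at 72 h in young and at 48 h in older livers. The single livers were at 9.19, 10.80, 11.13 and 10.56 (SD 0.85), with M545 below the untreated mean of its age and time and the other 3 above all other means. The difference of 1.16 from untreated livers did not pass (SE 0.42, adjusted p = 0.11, limma). The 1.25 against 0 h did (adjusted p = 0.030, limma), but not when M546, M547 or M548 was left out (adjusted p = 0.087, 0.078 and 0.082, limma). No step between neighbouring means exceeded the SD.

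**Figure D1:**
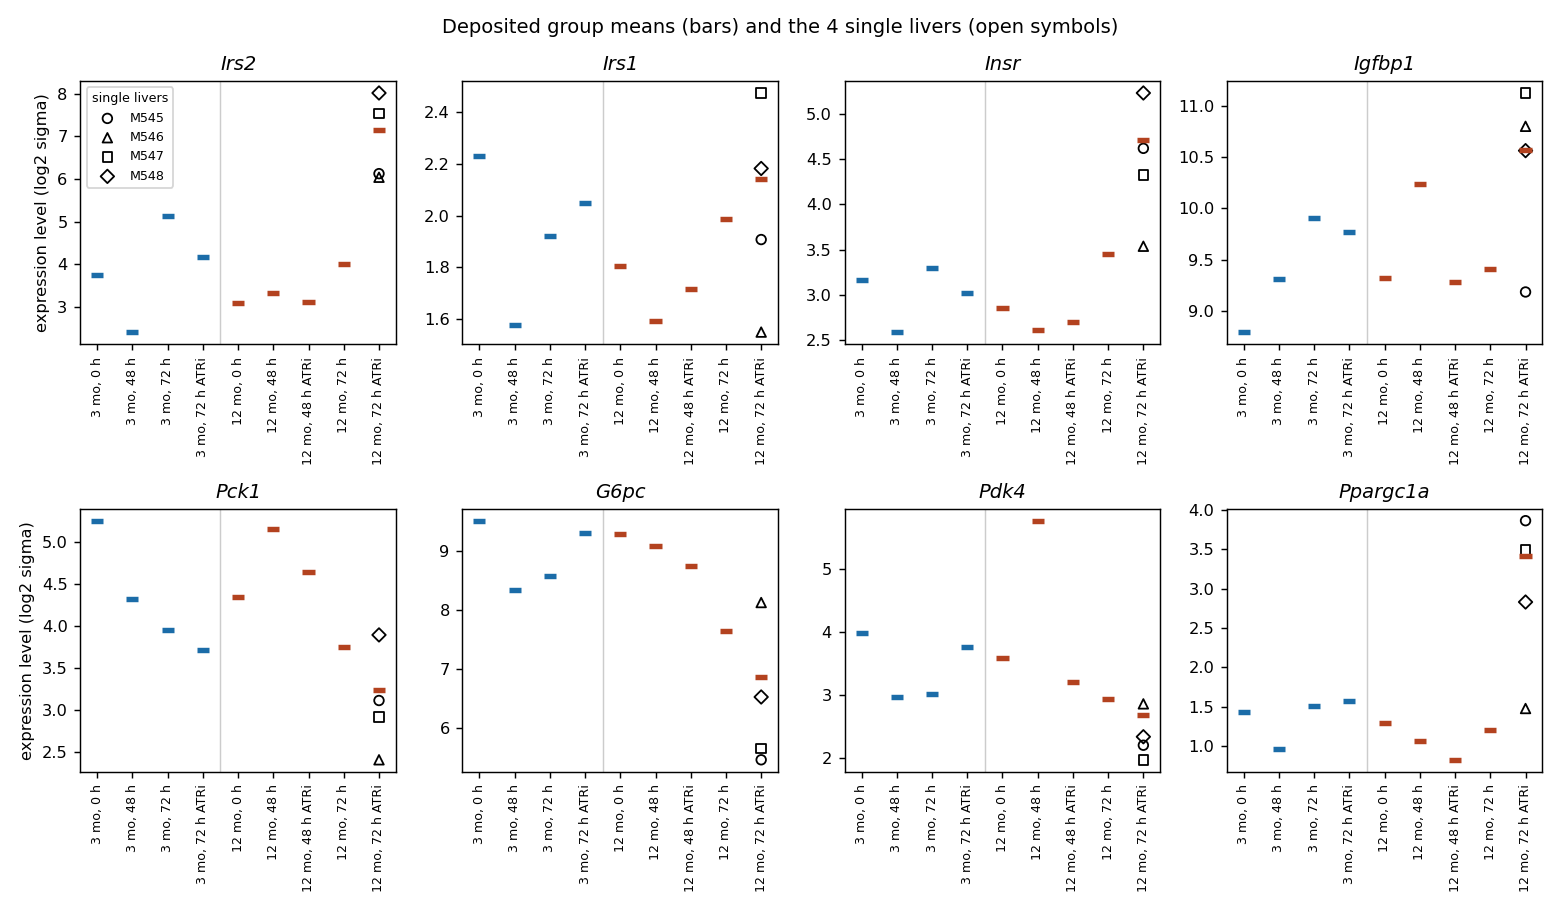
Levels of the 8 genes (y axis, log2 sigma, a separate scale in each panel) in the 9 groups (x axis). Bars are deposited means (blue 3 months, red 12 months), and open symbols are the 4 single livers of the 12-month ATRi group at 72 h. Irs2 reached 7.15 in that group and Pdk4 5.78 at 48 h in untreated 12-month livers.

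Pck1 and G6pc code for the enzymes at the first committed and the last step of glucose production, phosphoenolpyruvate carboxykinase and the catalytic subunit of glucose-6-phosphatase. Pck1 (chr2:173153048-173159273, plus strand) was at 5.26 at 0 h, 4.32 at 48 h, 3.95 at 72 h and 3.71 at 72 h under ATRi at 3 months. At 12 months it was at 4.34 at 0 h, 5.15 at 48 h, 4.65 at 48 h under ATRi, 3.75 at 72 h and 3.24 at 72 h under ATRi. It was lower at 48 than at 0 h in young livers and higher in older ones. The single livers were at 3.11, 2.40, 2.91 and 3.89 (SD 0.62), so M548 lay above the untreated 72 h mean and the other 3 below all other means. Pck1 fell by 1.41 from 48 to 72 h under ATRi (adjusted p = 0.026, limma) and by 1.10 against 0 h (adjusted p = 0.022, limma). Both calls were lost without M545 (adjusted p = 0.053 and 0.052, limma) and without M547 (adjusted p = 0.064 and 0.062, limma). Against untreated 72 h livers it differed by −0.51 (SE 0.34, adjusted p = 0.33, limma).

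G6pc (chr11:101367561-101377903, plus strand) was at 9.51 at 0 h, 8.33 at 48 h, 8.58 at 72 h and 9.29 at 72 h under ATRi at 3 months. At 12 months its mean was 9.28 at 0 h, 9.08 at 48 h, 8.74 at 48 h under ATRi, 7.64 at 72 h and 6.87 at 72 h under ATRi. Both 72 h means of older livers were thus below every other mean. The single livers were at 5.46, 8.12, 5.66 and 6.53 (SD 1.21). M546 stood 0.48 above the untreated mean, and the other 3 lay 1.12 to 2.18 below it. The difference from untreated livers, −0.77, did not pass (SE 0.59, adjusted p = 0.39, limma). Without M546 it was −1.33 (adjusted p = 0.034, limma). G6pc fell by 2.42 at 12 against 3 months under ATRi (adjusted p = 0.028, limma) and by 2.41 against 0 h (adjusted p = 0.010, limma). The first of these calls was lost without M545, M547 or M548 (adjusted p = 0.059, 0.067 and 0.071, limma). No step between neighbouring means of Pck1 or of G6pc exceeded its SD.

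Pdk4 (chr6:5483351-5496309, minus strand) codes for the kinase that shuts off pyruvate dehydrogenase in fasting. Its mean at 3 months was 3.98 at 0 h, 2.97 at 48 h, 3.02 at 72 h and 3.76 at 72 h under ATRi. At 12 months it was 3.59 at 0 h, 5.78 at 48 h, 3.21 at 48 h under ATRi, 2.93 at 72 h and 2.69 at 72 h under ATRi. The untreated 12-month 48 h mean stood 1.80 above the next highest, and this was the only step in its order larger than the SD of 0.38. That mean was 2.19 above 0 h at the same age, 2.81 above 48 h at 3 months and 2.57 above 48 h under ATRi. The 3 values have no test of their own, since each side is 1 mean. With the spread borrowed from the 4 ATRi livers, the adjusted p was 0.003, 0.039 and 0.096 in that order (limma), and 10.2%, 0.126% and 0.0180% of all genes passed. At 72 h under ATRi the older livers were at 2.20, 2.86, 1.97 and 2.33, as deposited all below the lowest other mean, M546 by only 0.075. The deposited mean of this group lies 0.345 above the mean of its 4 livers. M546 is thus below the other means by less than this offset, and its place is uncertain. Pdk4 fell by 1.07 against 3 months under ATRi (adjusted p = 0.022, limma) and by 0.90 against 0 h (adjusted p = 0.014, limma). The first call was lost without M545, M547 or M548 (adjusted p = 0.052, 0.067 and 0.064, limma).

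Ppargc1a (chr5:51454250-51567726, minus strand) codes for PGC-1α, a coactivator that fasting induces in hepatocytes and that drives gluconeogenic and mitochondrial genes. Its mean at 3 months was 1.43 at 0 h, 0.97 at 48 h, 1.52 at 72 h and 1.58 at 72 h under ATRi. At 12 months it was 1.30 at 0 h, 1.06 at 48 h, 0.83 at 48 h under ATRi and 1.20 at 72 h. The 12-month 72 h ATRi mean was 3.41, and this last step of the order was the only one above the SD. Its livers were at 3.86, 1.48, 3.49 and 2.83 (SD 1.05), so M546 as deposited lay within the range of the other means and the other 3 above it. The deposited mean of this group lies 0.493 above the mean of its livers. M546 was below the highest other mean by less than this offset, so its place is uncertain. Ppargc1a rose by 2.21 against untreated livers, 4.61-fold (SE 0.52, adjusted p = 0.047, limma). The call was lost without M545, M547 or M548 (adjusted p = 0.096, 0.12 and 0.12) and with the livers as deposited (adjusted p = 0.073, limma). While Ppargc1a was higher, its textbook targets Pck1 and G6pc stood at −0.51 and −0.77 in the same comparison, and neither passed.

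The comparison of ATRi with untreated livers at 72 h and 12 months describes how these genes differed between treated and untreated regenerating liver. Its untreated side is a deposited mean with no spread of its own. Of the 8 genes, 2 rose (Irs2 and Ppargc1a) and none fell. Over all genes 11.4% passed, 9.04% higher and 2.38% lower. The median difference of the 8 was 0.66, beside 0.08 over all genes. The number of calls depended on the fit. With the livers entered as deposited, not shifted to their group's mean, 0 genes passed (Irs2 2.92, adjusted p = 0.051; Ppargc1a 1.71, limma). With equal weights 0 passed as well, and 0 passed without M545, M547 or M548, while 2686 passed without M546, the liver with the highest neutrophil markers. The levels of both genes kept their direction in each of these fits.

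Under ATRi at 72 h, 5 of the 8 genes differed between 12 and 3 months (28.3% of all genes, 18.3% higher and 9.96% lower). Irs2 rose by 2.98 (adjusted p = 0.011), Insr by 1.68 (adjusted p = 0.021) and Ppargc1a by 1.83 (adjusted p = 0.043, limma), and G6pc and Pdk4 fell as given above. With 1 of M545, M547 and M548 left out, 2, 1 and 2 of the 8 passed. These were Irs2 and Igfbp1, then Irs2 alone, then Irs2 and Insr, and Igfbp1 was not among the 5. From 48 to 72 h under ATRi at 12 months 4 passed, where 37.2% of all genes did (19.4% higher and 17.8% lower). Irs2 rose by 4.04 (adjusted p = 0.005) and Ppargc1a by 2.58 (adjusted p = 0.015, limma). Against 0 h at 12 months 7 of the 8 passed, with 48.1% of all genes (25.6% higher and 22.5% lower), and Irs1 was the exception. There Irs2 rose by 4.05 (adjusted p = 0.001) and Ppargc1a by 2.11 (adjusted p = 0.010, limma). With every observation at equal weight 0, 1 and 1 of the 8 passed in these 3 comparisons. They share the 4 ATRi livers, so their values are not independent of each other.

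Whether the ATRi difference at 72 h itself differed with age was tested as an interaction. None of the 8 passed, and 4 had an unadjusted p under 0.05 (limma, 0.00899% of all genes, which is 1 gene, against 2708 at an unadjusted p under 0.05). The interaction was 4.10 for Irs2 (adjusted p = 0.10), 2.14 for Ppargc1a (adjusted p = 0.15), 1.53 for Insr (adjusted p = 0.15) and −1.49 for G6pc (adjusted p = 0.33, limma). Without M546, 5 of the 8 and 1311 genes passed. At 3 months the ATRi and untreated means at 72 h differed by at most 0.96 (Irs2, lower under ATRi), and 0 of the 8 differed by 1 or more, beside 0.180% of all genes.

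**Figure D2:**
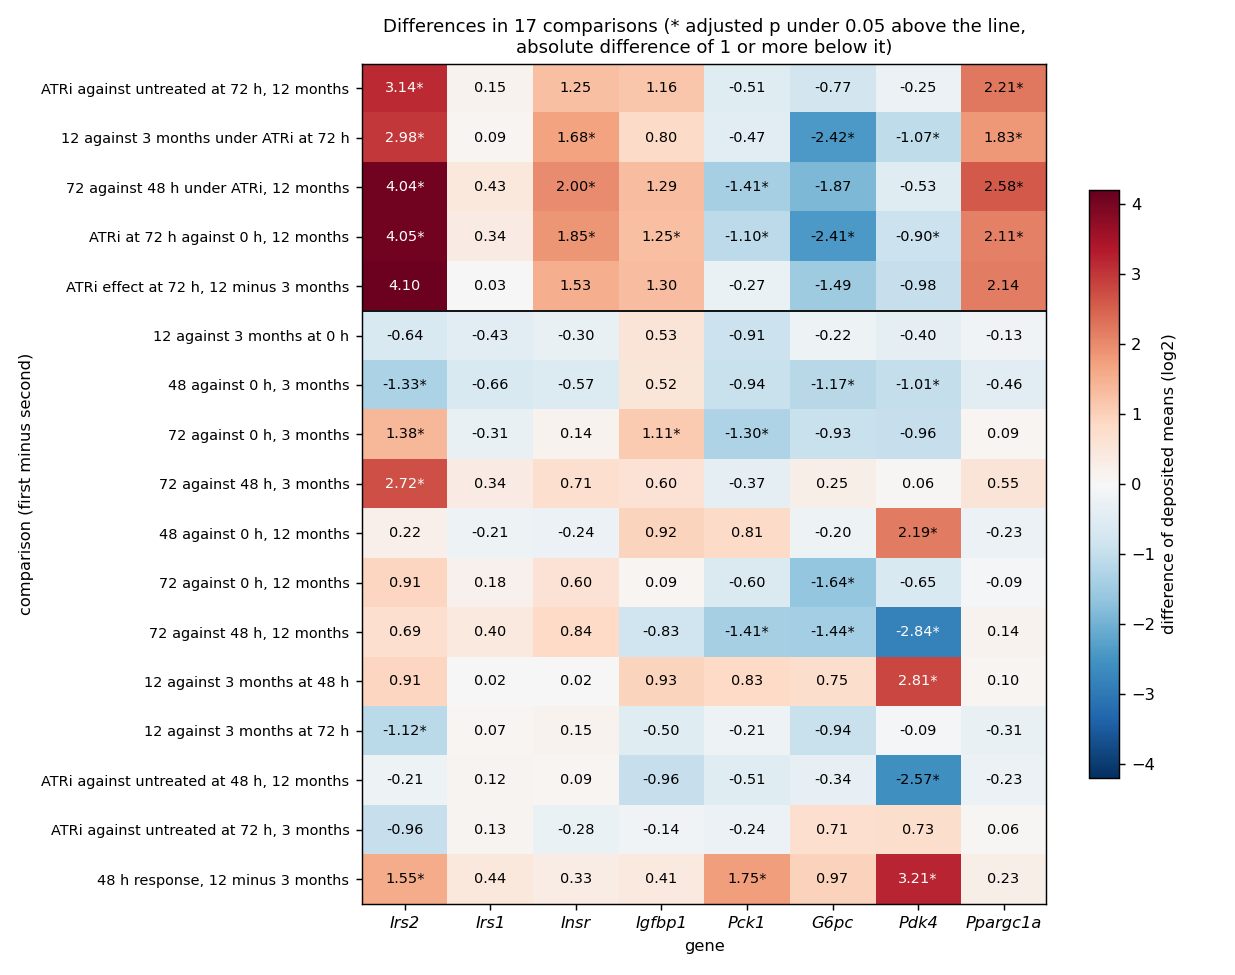
Differences of the 8 genes (columns) in 17 comparisons (rows), as first minus second deposited mean in log2 units, red higher and blue lower. Stars mark an adjusted p under 0.05 in the 5 comparisons above the line and an absolute difference of 1 or more in the 12 below it, which have no test. Irs2 and Ppargc1a are starred in 4 of the 5 upper rows.

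The remaining comparisons set 1 mean against another and were described by a difference of 1 or more. Before PH, 0 of the 8 genes differed so between ages (1.27% of all genes). The largest was Pck1, 0.91 lower at 12 months. In young livers 3 were lower at 48 than at 0 h (Irs2 −1.33, G6pc −1.17 and Pdk4 −1.01), where 2.67% of all genes were lower, and Igfbp1 alone was above 0 (0.52). The median over all genes was −0.09 in that comparison. At 72 h in young livers Irs2 (1.38) and Igfbp1 (1.12) were higher and Pck1 (−1.30) lower, and 4.49% of all genes passed the size. From 48 to 72 h Irs2 alone passed it (2.72, with 1.61% of all genes higher).

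In untreated 12-month livers the 48 h response was another: Pdk4 alone passed the size (2.19, with 3.26% of all genes higher), Igfbp1 was at 0.92 and Pck1 at 0.81. By 72 h G6pc was 1.64 below 0 h (1.01% of all genes lower). From 48 to 72 h Pdk4 (−2.84), G6pc (−1.44) and Pck1 (−1.41) were lower, with 1.89% of all genes lower. All 8 genes were higher at 12 than at 3 months at 48 h, by 0.02 (Insr and Irs1) to 2.81 (Pdk4), and 1 of them by 1 or more (0.782% of all genes higher). The median over all genes was 0.026 there, above Insr and Irs1. The 48 h response of older minus that of young livers was above 0 for all 8 and 1 or more for Pdk4 (3.21), Pck1 (1.75) and Irs2 (1.55), beside 2.05% of all genes. Over all genes the median of this response difference was 0.08. ATRi at 48 h went with a lower Pdk4 (−2.57) and with 0.252% of all genes lower by 1 or more, and Igfbp1 was at −0.96. At 72 h Irs2 was 1.12 lower at 12 than at 3 months (0.773% of all genes lower).

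The ATRi difference at 72 h in 12-month livers moved with gene span, the genomic length from the first to the last base of a gene. Spans were matched for 10409 genes, and all 8 had a span. In 10 classes of equal size by span the median difference was −0.03 in the shortest (up to 7.0 kb) and 0.52 in the longest (115.5 kb and over), and 2.5% and 22.1% of genes were higher by 1 or more. Insr spans 157.6 kb, Ppargc1a 113.5 kb, Irs1 58.3 kb and Irs2 23.8 kb, and the 4 genes of the fasting output span 4.8 to 13.0 kb. In each liver the longest class had the highest median, at 0.61, 0.24, 0.54 and 0.49 for M545, M546, M547 and M548. M546, the lowest, was also the lowest of the 4 in Irs2, Irs1, Insr and Ppargc1a and in the short Pck1. With the levels of each table centred on the median of each class before the fit, Irs2 was 3.05 higher under ATRi (adjusted p = 0.054, limma), Ppargc1a 1.64 (adjusted p = 0.072), Igfbp1 1.30 (adjusted p = 0.089) and Insr 0.65 (adjusted p = 0.20, limma). In that fit none of the 8 and 1 gene in all passed. For 12 against 3 months under ATRi, Irs2 (2.97, adjusted p = 0.015), G6pc (−2.35, adjusted p = 0.028) and Pdk4 (−1.06, adjusted p = 0.014) still passed within classes, and Ppargc1a (1.32, adjusted p = 0.073) and Insr (0.90, adjusted p = 0.075, limma) did not. The fall of Pck1 against 48 h and against 0 h did not pass within classes either (adjusted p = 0.058 and 0.068, limma).

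**Figure D3:**
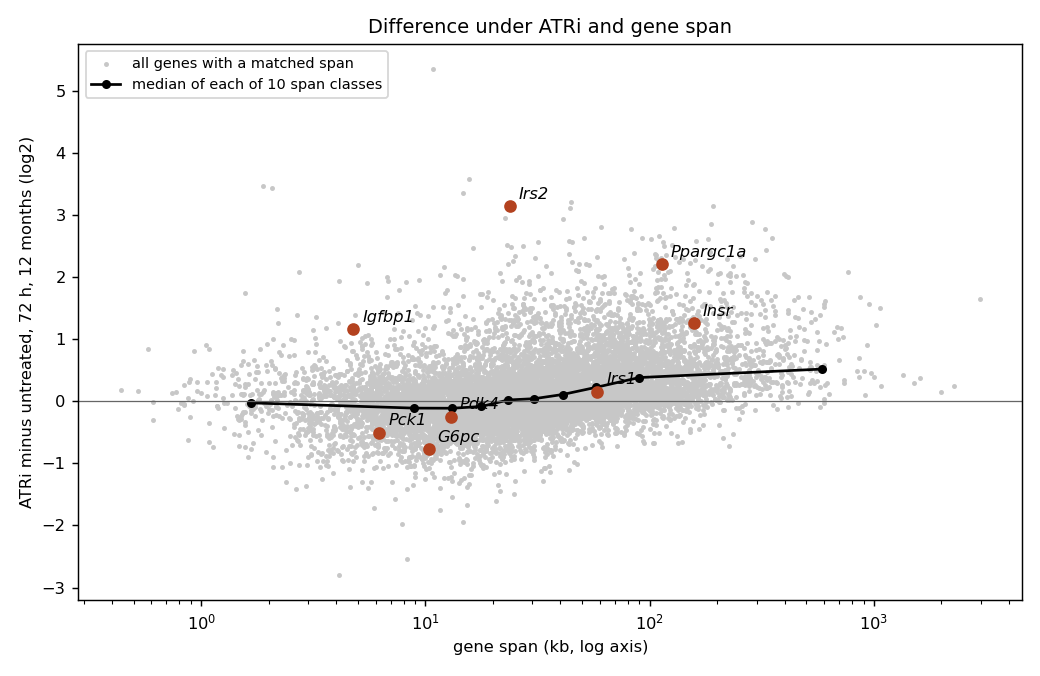
Difference under ATRi at 72 h and 12 months (y axis, log2) against gene span (x axis, kb, log axis) for 10409 genes in grey. Black points are the medians of the 10 span classes, and the 8 genes are red. Irs2 is at 3.14 in a class with a median of 0.02, and Insr at 1.25 in a class with a median of 0.52.

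In the same comparison other genes of the insulin signal were counted. Of 30 measured genes of the chain from receptor to mTOR with its phosphatases and inhibitors, 9 rose and 1 fell, where 9.04% of all genes rose and 2.38% fell. These shares stand beside all list counts of this comparison. The median of the 30 was 0.60, beside 0.08 over all genes. Ptpn1, the phosphatase that switches the insulin receptor off, rose by 1.82 (adjusted p = 0.047, limma). Foxo1, the transcription factor that AKT inhibits, rose by 1.77 (adjusted p = 0.043, limma). Socs2, a feedback inhibitor of growth hormone signalling, was at 2.57 and did not pass (adjusted p = 0.078, limma). Ptpn1 thus acts against the insulin signal and Foxo1 is held back by it, whereas the list also holds the kinases that carry the signal. Most of the list was above 0, so the 2 named rises give no direction of the signal. Of the 22 chain genes in the longest 3 span classes 21 were above 0 and 7 rose (median 0.78). Of the other 8, 6 were above 0, 2 rose and 1 fell (median 0.24).

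The output genes showed no common direction. Of 12 measured genes of gluconeogenesis and glucose release beyond Pck1 and G6pc, Got1, the cytosolic aspartate aminotransferase, rose by 1.30 (adjusted p = 0.049) and Pck2, the mitochondrial carboxykinase, fell by 0.90 (adjusted p = 0.043, limma). Among 20 fasting regulators and targets 5 rose and 3 fell. Sik1, a kinase that CREB induces and that restrains it, rose by 2.03 (adjusted p = 0.043), and Tat, the tyrosine aminotransferase induced by glucocorticoids, by 1.95 (adjusted p = 0.043, limma). Cebpa, a hepatocyte transcription factor, fell by 1.42 (adjusted p = 0.043, limma). Of 7 glucocorticoid-induced genes, which again include Tat, 4 rose and none fell, among them Zbtb16 (2.604, adjusted p = 0.043) and Fkbp5 (1.67, adjusted p = 0.047, limma). Of these 7, 5 are in the longest 3 span classes, Zbtb16 and Fkbp5 among them, and 3 of the 5 rose. Of the other 2, 1 rose. In the IGF axis, of 8 measured, Igf1 rose by 1.71 (adjusted p = 0.045) and Igfbp2 was among 2 that fell (−0.81, adjusted p = 0.044, limma). Igf1 is also in the longest 3 span classes, and both that fell are in shorter ones. None of 9 glycogen, 7 pyruvate dehydrogenase control, 12 insulin-induced glycolysis and lipogenesis, 12 clock or 5 proliferation genes passed (limma). In that order, 2, 0, 1, 4 and 0 of them had an unadjusted p under 0.05. Of all 11119 genes 3813 did, a share that none of these lists exceeded. As for the 8 genes, the calls at an adjusted p under 0.05 were lost with the livers as deposited, and with span centring 1 gene in all passed.

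**Figure D4:**
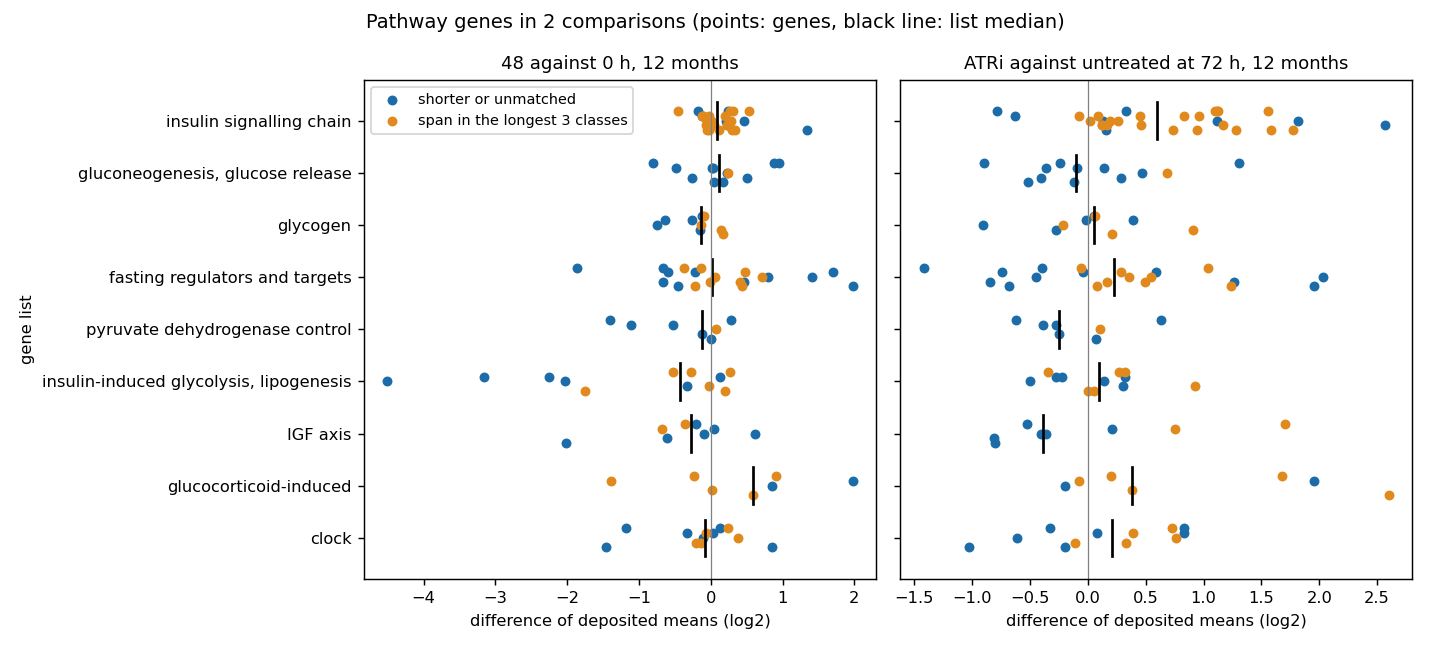
Differences (x axis, log2) of the genes of 9 lists (y axis) at 48 against 0 h in untreated 12-month livers (left) and under ATRi against untreated at 72 h and 12 months (right). Points are genes, orange where the span is in the longest 3 classes, and black lines are list medians. The insulin chain has a median of 0.08 on the left and 0.60 on the right.

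At 12 against 3 months under ATRi, 13 of the 30 chain genes rose and 2 fell (18.3% and 9.96% of all genes), with Foxo1 at 2.61 (adjusted p = 0.007), Foxo3 at 2.33 (adjusted p = 0.009) and Trib3, an inhibitor of AKT, at −2.33 (adjusted p = 0.005, limma). In the same comparison 4 of the 12 gluconeogenesis and glucose release genes fell and none rose, among them Slc2a2, the glucose transporter GLUT2 (−1.83, adjusted p = 0.011), and Pck2 (−1.51, adjusted p = 0.006, limma). Of the 12 genes of glycolysis and lipogenesis that insulin induces, 4 fell and none rose, with Scd1, a fatty acid desaturase, at −2.20 (adjusted p = 0.013) and Pklr, the liver pyruvate kinase, at −2.03 (adjusted p = 0.020, limma). From 48 to 72 h under ATRi 14 of the 30 chain genes rose and 2 fell (19.4% and 17.8% of all genes), and against 0 h 17 rose and 3 fell (25.6% and 22.5%). In these 3 comparisons, in the order given, 11, 11 and 13 of the 22 chain genes in the longest 3 span classes rose. Of the other 8 chain genes, 2, 3 and 4 rose. Over all genes of the longest class, 31.2%, 38% and 36.9% were higher by 1 or more. The part of gene span in the chain counts was not tested.

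The high Pdk4 of untreated 12-month livers at 48 h stood beside low genes of insulin-induced lipogenesis. Against 0 h, 5 of 12 were lower by 1 or more and none higher, beside 1.85% of all genes lower, with Scd1 at −4.50, Pnpla3, a lipase of lipid droplets, at −3.16, Fasn, the fatty acid synthase, at −2.25 and Pklr at −2.03. Pdk1 (−1.40) and Pdk2 (−1.12), 2 other kinases of pyruvate dehydrogenase, were lower where Pdk4 was higher. Of the 20 fasting regulators and targets 10 were above 0 and 10 below, with Angptl4, a fasting-induced inhibitor of lipoprotein lipase, at 1.70, Sik1 at 1.41 and Cebpa at −1.86. Tat was 1.98 higher at 12 months and 3.63 higher at 3 months. Of the insulin chain, 1 of 30 was higher by 1 or more (Socs3, 1.34). Between the ages at 48 h Scd1 (−4.64), Fasn (−1.64) and Acly (−1.58) were lower at 12 months, and Txnip (1.48), an inhibitor of glucose uptake, was higher. None of these differences of means has a replicate check. Genes of the lipogenesis list were low in 12-month livers under ATRi as well, where Pdk4 at 48 h was at 3.21. Of the 6 in span classes 1 to 7, 2 were above 0 at 72 h against 0 h (median −0.799), and of the other 6, 3 (median −0.03). From 48 to 72 h under ATRi all of the first 6 were above 0, so their 48 h levels were lower still.

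Over the 9 means, Pearson r was 0.94 for Irs2 and Insr, 0.92 for Irs2 and Ppargc1a and 0.94 for Insr and Ppargc1a. It was 0.71 for Pck1 and G6pc and 0.69 for Pck1 and Pdk4. These correlations describe 9 points that share mice and processing, and without the 12-month 72 h ATRi mean the 5 were 0.80, 0.75, 0.65, 0.52 and 0.64 over 8 means. Irs1 then had 0.79 with Insr and 0.76 with Ppargc1a, beside 0.69 and 0.61 over the 9. Among 3997 genes whose means spanned 1 or more, the genes most like Irs2 were Ell2 (0.99), Thrb (0.99) and Hipk2 (0.99). Among those most like Insr were Itpr2 (0.997) and Rin3 (0.996), and those most like Ppargc1a were Plekhm2 (0.997), Bptf (0.99) and Fnip2 (0.99). Some of these reached a span of 1 only through the 12-month 72 h ATRi mean. Plekhm2 was at 3.31 there and at 2.30 to 2.56 in the other 8 means, and Thrb at 2.97 and at 1.83 to 2.35. Their r thus rests largely on that high mean, and r with these genes was not computed without it. Irs1 was most like Rnf125 (0.95), Slc6a6 (0.94) and Elovl2 (0.94), and Igfbp1 most like Eif2s3x (0.91), Tcea1 (0.90) and Ifrd1 (0.90). Pck1 was most like Ccdc58 (0.95), Ggnbp1 (0.95) and Tlr5 (0.95), and G6pc most like Zswim7 (0.97), Zfand1 (0.96) and Akr1c14 (0.96). The closest genes to Pdk4 were Taf13 (0.88), Pon1 (0.88) and Pllp (0.87), the lowest likeness of the 8.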

How the data were processed

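The authors deposited expression levels as log2 of sigma, and per the submitters' processing notes the genome build was GRCm38 (mm10). The aligner, counting and scaling are not given in the sources used here, and depth is unknown. The 12 tables hold the same 11119 genes, and values were used on the authors' scale. For 5 comparisons limma 3.58.1 (R 4.3.3) gave the test (trend and robust, two-sided, Benjamini-Hochberg over all genes, threshold 0.05). The fit held the 4 single livers, shifted gene by gene so that their mean equalled the deposited mean, and 1 mean for each other group, weighted by its mice. The other 8 groups are thus assumed to vary like these 4 livers, whose spread may be partly technical. The 12 comparisons of means were called at a difference of 1 without a test. On simulated data (ATRi against untreated at 72 h and 12 months, 11119 genes) the test found 43.6% of changes of 1 and 82.8% of changes of 2, and 3.434% of calls were false. The simulation gave every group the spread of the 4 livers and set the ATRi mean to the mean of its livers. It drew genes independently, so its share of false calls holds only where these settings do.

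The members and lists were chosen with earlier results of these data known. Named genes are the 8, up to 4 of each list with the largest absolute difference, and the 3 most correlated genes of each member over the 9 means. Some genes that this rule names are not reported here. Gene spans come from GENCODE M21 (10409 genes matched by symbol and chromosome). Promoters come from RefSeq. Marker lists covered hepatocytes, Kupffer cells, sinusoidal endothelium (summed level 5.73 to 6.26 in the means), stellate cells (6.60 to 7.17), neutrophils, cholangiocytes (6.81 to 8.30), T and NK cells (1.50 to 2.34), B and plasma cells (2.15 to 3.44) and adipocytes (1 of 4 genes measured, 0.18 to 0.79). Alternatives were livers as deposited, equal weights, no trend or robust fit, centred tables, a level filter, borrowed spread, each liver left out and, added after the data were seen, centring within 10 classes of gene span.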

Additional observations from a re-analysis of the deposited data

How the results depend on the processing

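No paired analysis was possible because 8 of the 9 groups are deposited only as means, so that mice seen at 0 and 72 h cannot be paired. For ATRi against untreated livers at 72 h and 12 months, 1270 genes and 2 of the 8 passed. With the livers as deposited 0 and 0 passed, with equal weights 0 and 0, with span centring 1 and 0, and without trend and robust fit 1 of the 8 passed. Equal weights gave 7 genes (from 3147) and 0 of the 8 for 12 against 3 months under ATRi, 914 (from 4134) and 1 for 72 against 48 h under ATRi, and 574 (from 5347) and 1 for ATRi at 72 h against 0 h. Span centring left 3 of the 8 for 12 against 3 months under ATRi. The interaction with age called 1 gene (Cyp2a4), and 0 with equal weights, without trend and robust fit, with a mean level of 1 or more, or with span centring. Why these counts moved was not tested.

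Leaving out each liver gave, in the same order of comparisons, 0 to 2686, 1311 to 3840, 2621 to 4550, 3707 to 5559 and, for the interaction, 0 to 1311 genes, and 0 to 4, 1 to 5, 3 to 6, 5 to 6 and 0 to 5 of the 8. Without M546 the ATRi comparison called 2686 genes and the interaction 1311. Without M547 and M548, 12 against 3 months under ATRi called 1311 and 1493, and without M547, 72 against 48 h under ATRi called 2621.

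Irs1 turned below 0 in ATRi against untreated livers when tables were centred (−0.068) or spans were (−0.217). For 12 against 3 months under ATRi it was at −0.021 with livers as deposited, −0.107 centred, −0.219 with span centring and −0.055 to 0.254 with a liver left out. Against 0 h it was −0.114 with span centring. For the interaction it was −0.087, −0.188, −0.31 and −0.121 to 0.188 in the same 4 settings. No other of the 8 changed sign in the tested comparisons. Among single-gene values, leaving out a liver kept direction and side of the threshold in 122, lost a call in 24 and gained a call in 11, and the other settings did so in 486, 29 and 4.

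Centring each table on its median (the 12-month 72 h ATRi median is 0.223 above the untreated one) turned the split of the ATRi calls from 1005 higher and 265 lower to 528 and 966. For 12 against 3 months under ATRi the split went from 2040 and 1107 to 1427 and 2393 (1354 and 1859 with span centring), for 72 against 48 h from 2159 and 1975 to 1808 and 2769, and against 0 h from 2843 and 2504 to 2127 and 4477.

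With the spread borrowed from the 4 livers, comparisons of means called 537 genes for age at 0 h (141 by size), 1507 at 48 h and 1679 at 72 h in young livers (715 and 499), and 1130 and 1425 in older ones (569 and 437). They called 14 for age at 48 h (151), 2 for ATRi at 48 h (64), 1 for ATRi at 72 h and 3 months (20) and 121 for the age difference of the 48 h response (474). Of the 8 genes, 1 passed at 48 h in young livers, from 48 to 72 h in older livers and in the 48 h response, and 0 passed at 72 h against 0 h in older livers, for age at 72 h and for ATRi at 48 h.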
